A study of Homo sapiens with 6 samples.

Results

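The MYC network genes described here are MYC, MYCL, MYCN, MAX, MXD1, MXD3, MXD4, MNT, MLX and MLXIP. They were chosen by name, from what their proteins are known to do, although earlier results of these data were known. All 10 were found among the 60671 gene rows of the count table. RNA was measured in cultures of A549, HCC827 and H1975, which are 3 established lines of non-small cell lung cancer. Each line was kept for 48 h with 10 µg/mL AL-X, or with the solvent DMSO alone. AL-X is a dihydroxylated kaurenoic acid, a plant-type diterpenoid. HCC827 and H1975 carry mutant EGFR, and the labels give every culture as WT with no engineered allele. There was 1 library for each line and treatment, so the AL-X group and the DMSO group held 3 libraries each, and the lines were the only replicates.

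The proteins of this network are basic helix-loop-helix leucine zipper factors that bind E-box DNA, CACGTG, as pairs. MYC, MYCL and MYCN pair with MAX and activate genes for ribosome production, metabolism and the cell cycle, whereas the MXD proteins and MNT pair with MAX at the same sites and recruit SIN3 and histone deacetylases to repress them. MLX pairs with MLXIP (MondoA) or MLXIPL (ChREBP), which sense glucose metabolites, and it can also pair with MXD1, MXD4 and MNT. MYC RNA and protein turn over within minutes, so its RNA level follows signalling closely.

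Library totals lay between 98139178 and 121552821 counts with AL-X and between 104648304 and 126840915 with DMSO. The libraries differed in ways that touch every value below. Genes of the mitochondrial genome took 0.0201% of counts in A549, 0.656% in HCC827 and 0.0535% in H1975 with AL-X, against 6.87%, 6.69% and 6.41% with DMSO. The TMM scaling factor, which corrects for such shifts in composition, was 0.557 in A549 with AL-X and between 0.903 and 1.27 in the 5 other libraries. Scaling by library totals alone moved the median log2 fold of all genes by -1 in A549, 0.13 in HCC827 and -0.41 in H1975, and folds are given with TMM scaling unless library totals are named. Epithelial keratin and adhesion genes summed to between 2130 and 3950 counts per 1e6 (CPM) with AL-X and between 2780 and 4370 CPM with DMSO. In A549 nearly all of that sum was KRT8 and KRT18, and the adhesion gene CDH1 had 15.6 CPM with AL-X and 209 CPM with DMSO. CDH1 was not lower in HCC827 (606 CPM with AL-X, 405 CPM with DMSO) or H1975 (599 and 595 CPM). The lung lineage genes NKX2-1, NAPSA and SFTPB summed to between 0.0891 and 97.6 CPM with AL-X and between 0.968 and 464 CPM with DMSO. NKX2-1 moved with the treatment, at 40.6 CPM in HCC827 and 18.8 CPM in H1975 with AL-X, against 247 and 141 CPM with DMSO, and in A549 it was near 0 (0 CPM with AL-X, 0.0821 CPM with DMSO). SFTPB in HCC827 had 7.81 CPM with AL-X and 102 CPM with DMSO, and in H1975 it was near 0 (0.119 and 0.128 CPM). NAPSA was lower with AL-X in HCC827 (49.2 CPM, against 114 CPM with DMSO) and higher in H1975 (13.4 against 6.59 CPM). The part of these lineage gene differences in the results that follow was not tested. The leukocyte genes PTPRC and CD3E had 0 counts in all 6 libraries.

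MXD1, the founding repressor of the MXD family, was the member with the largest difference, and it was the 1 member at least 2-fold higher with AL-X in all 3 lines. MAX, the shared partner, was also higher in every line. MYC itself was higher in A549 and H1975 and slightly lower in HCC827. MXD3 was lower in every line, MNT was lowest in H1975 with AL-X, MXD4 was lower in A549, and MLX and MLXIP stayed close to their DMSO levels. In cell pools such as these, less RNA per cell and fewer cells making it cannot be told apart.

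**Figure D1:**
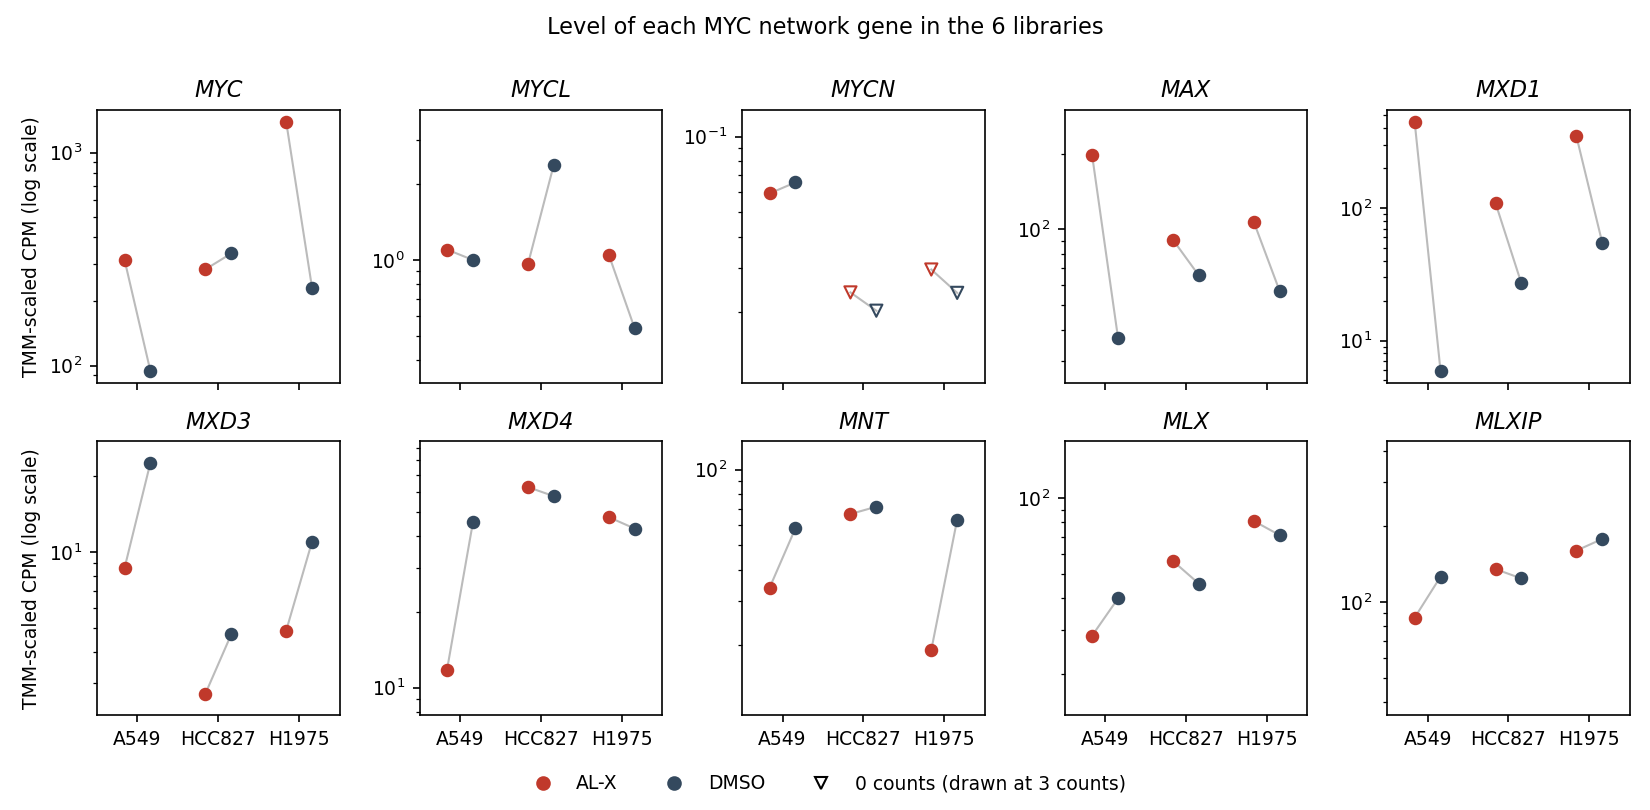
TMM-scaled CPM on log axes of their own for each of the 10 MYC network genes, with AL-X (red, left) and DMSO (blue, right) joined by a line within A549, HCC827 and H1975. All 3 AL-X points lie above all 3 DMSO points for MAX and MXD1, while the other members have overlapping groups. Open triangles mark MYCN libraries with 0 counts, drawn at 3 counts.

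The across-line comparison asked whether AL-X moved a gene in the same way in the 3 lines. Over all genes, edgeR's quasi-likelihood test with line as a block and Benjamini-Hochberg adjustment at 0.05 called 20 of 20344 genes higher (0.0983%) and 32 lower (0.157%). At an unadjusted p under 0.05 there were 1114 genes higher and 2085 lower. Of the 10 members, 9 passed the filter on low counts and 0 were called, in either direction. At an unadjusted p under 0.05 there were 2 members, MXD1 and MAX. The tests of DESeq2 and of limma-voom each called 1 member, MXD1, among 1986 and 661 genes called in all. The median across-line log2 fold was -0.06 for the 9 members and -0.27 for all genes tested. With 1 library for each line and treatment, these p-values rest on the spread between the 3 lines and not between cultures of a line. Each test also draws the spread of a gene towards that of other genes.

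MXD1 (ENSG00000059728) lies on chromosome 2, 69897688 to 69942945 on the plus strand of GRCh38, with 6351 bases of merged exons. It had 445 CPM in A549, 109 CPM in HCC827 and 349 CPM in H1975 with AL-X. With DMSO it had 5.89, 27 and 54.7 CPM in those lines. Every AL-X library was above every DMSO library, and the lowest AL-X value belonged to HCC827. The groups averaged 301 ± 173 CPM with AL-X and 29.2 ± 24.5 CPM with DMSO (SD, n = 3 each). Within a line, where 1 library a group allows no test, MXD1 was 75.3-fold higher in A549, 4.05-fold higher in HCC827 and 6.39-fold higher in H1975. These are log2 folds of 6.23 (95% interval 6.13 to 6.35), 2.02 (1.97 to 2.07) and 2.68 (2.64 to 2.71). The intervals are exact binomial intervals of the count ratio. They hold counting error alone, because 1 library a group shows no spread between cultures. Several reads may come from 1 molecule, so the intervals may be too narrow even for counting error.

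Few genes differed as much as MXD1. A fold at or above that of MXD1 was found for 0.592% of the 11825 genes considered in A549, for 2.28% of 11898 in HCC827 and for 1.35% of 11784 in H1975. A gene was considered within a line if the higher of its 2 libraries reached 5 CPM. The across-line log2 fold of MXD1 was 3.48 (SE 0.84, unadjusted p = 0.00135, edgeR adjusted p = 0.120), short of the threshold. It passed with DESeq2 (3.49, adjusted p = 0.000491), with limma-voom (3.59, adjusted p = 0.00477) and with edgeR when A549 was left out (2.39, SE 0.56, adjusted p = 0.0347). Over 12 alternatives the adjusted p ran between 0.000491 and 0.569, and the fold stayed between 2.39 and 4.42. The fold of A549 exceeded the mean of the other lines by 3.89 log2 units (SE 1.0, edgeR adjusted p = 0.0705), which also missed the threshold. MXD1 shares 237 exonic bases with SNRNP27 on the same strand, a splicing factor gene with 73.6, 30.4 and 41.1 CPM in A549, HCC827 and H1975 with AL-X, against 27, 23.6 and 25.4 CPM with DMSO.

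The window around the start of MXD1 is shown because this gene carries the largest difference of the network. RefSeq on GRCh38.p14 places it at chr2:69914859-69915158 on the plus strand, inside the GENCODE 29 gene body, with 250 bases before the start and 50 after it. It is printed 5′ to 3′, and it holds the letters of none of the motifs searched on both strands, the E-box and the AP-1 and CRE motifs spelled out beside the other promoters.
MXD1: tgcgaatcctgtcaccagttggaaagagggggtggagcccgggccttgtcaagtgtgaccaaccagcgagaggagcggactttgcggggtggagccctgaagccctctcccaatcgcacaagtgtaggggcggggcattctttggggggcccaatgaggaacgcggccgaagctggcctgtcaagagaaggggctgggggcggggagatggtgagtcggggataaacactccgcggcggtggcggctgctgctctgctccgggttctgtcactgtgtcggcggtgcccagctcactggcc

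MYC (ENSG00000136997), the activator after which the network is named, lies on chromosome 8, 127735434 to 127741434 on the plus strand, with 3001 bases in 3 merged exons. It had 314 CPM in A549, 283 CPM in HCC827 and 1390 CPM in H1975 with AL-X. With DMSO it had 94.3, 336 and 231 CPM in those lines. The groups overlapped, because HCC827 with DMSO lay above the AL-X libraries of both HCC827 and A549. H1975 with AL-X stood far above all other libraries. MYC was 3.33-fold higher in A549 and 5.99-fold higher in H1975, and in HCC827 it was at 0.842 of its DMSO level. The log2 folds were 1.74 (1.70 to 1.77), 2.58 (2.56 to 2.60) and -0.25 (-0.27 to -0.23) in A549, H1975 and HCC827. A fold at or above that of MYC was found for 17.1% of genes in A549 and for 1.43% in H1975, so the first is common in its line and the second is not. With library totals as the only scaling the log2 folds of MYC were 0.73, -0.12 and 2.17 in A549, HCC827 and H1975, with the same signs and under 2-fold in A549. Across lines the log2 fold was 1.39 (SE 0.73, edgeR adjusted p = 0.376). HCC827 differed from the mean of the other lines by -2.41 (SE 1.2, unadjusted p = 0.0442, edgeR adjusted p = 0.593), which did not pass.

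MYCL and MYCN, the paralogues of MYC known from small cell lung cancer and neuroblastoma, were scarcely present. MYCL (ENSG00000116990, chromosome 1, 39895426 to 39902256, minus strand) gave 74 counts in A549, 120 in HCC827 and 106 in H1975 with AL-X, against 122, 352 and 67 counts with DMSO. Those counts stand for 1.1, 0.961 and 1.05 CPM with AL-X and 1.0, 2.39 and 0.535 CPM with DMSO. Its log2 folds were 0.13 in A549, -1.30 in HCC827 and 0.95 in H1975, all below the level of 5 CPM at which a fold was counted (across lines -0.06, SE 1.0, edgeR adjusted p = 0.981). MYCN (ENSG00000134323, chromosome 2, 15940564 to 15947007, plus strand) had 4 counts in A549 with AL-X and 8 with DMSO. It had 0 counts in the 4 libraries of HCC827 and H1975, where 3 counts would be 0.024 and 0.0296 CPM with AL-X and 0.0203 and 0.0239 CPM with DMSO. MYCN failed the filter and was not tested. Per kilobase of merged exons, MYC made up 99.77%, 99.8% and 99.96% of the sum of MYC, MYCL and MYCN in A549, HCC827 and H1975 with AL-X, and 99.3%, 99.58% and 99.86% with DMSO.

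MAX (ENSG00000125952, chromosome 14, 65006174 to 65102695, minus strand) encodes the partner that both MYC and the repressors need to bind DNA. It had 197 CPM in A549, 90.9 CPM in HCC827 and 107 CPM in H1975 with AL-X, against 37.1, 65.6 and 56.8 CPM with DMSO. The groups did not overlap, and A549 held both the highest AL-X value and the lowest DMSO value. The means were 132 ± 56.9 CPM with AL-X and 53.2 ± 14.6 CPM with DMSO (SD, n = 3 each). MAX was 5.30-fold, 1.38-fold and 1.89-fold higher in A549, HCC827 and H1975, so it passed 2-fold in A549 only, where 9.14% of genes had a fold at least as large. The across-line log2 fold was 1.25 (SE 0.53, unadjusted p = 0.0364, edgeR adjusted p = 0.288). With library totals the log2 folds were 1.4, 0.6 and 0.51, still higher in each line. MAX and MXD1 were thus the 2 of 9 members whose AL-X libraries all lay above the DMSO libraries, as did 7.78% of the genes tested, and 0 members had all AL-X libraries below, as did 9.54% of genes.

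MXD3 (ENSG00000213347, chromosome 5, 177301461 to 177312757, minus strand), the MXD protein that is known to be expressed in proliferating cells, was low in all libraries. It had 8.62, 2.73 and 4.87 CPM in A549, HCC827 and H1975 with AL-X, against 22.6, 4.70 and 11.0 CPM with DMSO. Each line was lower with AL-X, by log2 folds of -1.39, -0.78 and -1.17, but the groups overlapped because the lines start from different levels. The across-line log2 fold was -1.11 (SE 0.64, edgeR adjusted p = 0.413). In HCC827 it stayed under 5 CPM, so its fold was not counted there. MXD3 shares 1158 exonic bases with PRELID1 on the other strand and 926 with RAB24 on its own strand. PRELID1 had 601, 112 and 173 CPM with AL-X against 111, 81.4 and 69.7 CPM with DMSO, a difference in the direction opposite to that of MXD3. The strand setting of the counts is not given in the sources used here, so reads of the shared bases cannot be told apart.

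MXD4 (ENSG00000123933, chromosome 4, 2247432 to 2262294, minus strand) is a repressor of the same family that is known for resting and differentiated cells. It had 11.8 CPM in A549, 62.7 CPM in HCC827 and 47.6 CPM in H1975 with AL-X, against 45.4, 57.7 and 42.9 CPM with DMSO. The A549 library with AL-X stood apart below the other 5, which lay close together. The log2 fold was -1.94 (-2.06 to -1.84) in A549, with 0.12 for HCC827 and 0.15 for H1975, and with library totals the last of these turned to -0.26. A549 differed from the mean of the other lines by -2.08 (SE 0.91, unadjusted p = 0.027, edgeR adjusted p = 0.377), and the across-line log2 fold was -0.53 (SE 0.56, edgeR adjusted p = 0.646). Without A549 the across-line value was 0.18. In A549, MXD1 and MXD4, which bind the same partner and the same DNA, thus differed in opposite directions. The ratio of MXD1 counts to MXD4 counts was 37.8 in that line with AL-X and 0.13 with DMSO, and it was also higher with AL-X in HCC827 (1.74 against 0.468 with DMSO) and H1975 (7.33 against 1.27 with DMSO).

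MNT (ENSG00000070444, chromosome 17, 2384060 to 2401118, minus strand) encodes the repressor that is known to be present in cycling and resting cells alike and to compete with MYC for MAX. It had 33.9, 66.6 and 19.2 CPM in A549, HCC827 and H1975 with AL-X. With DMSO its values were 58.5, 71.2 and 63.3 CPM, the narrowest DMSO range among the members above 5 CPM relative to the mean (64.3 ± 6.4, SD, n = 3). The AL-X libraries of H1975 and A549 lay below that range and HCC827 lay inside it. MNT was at 0.304 of its DMSO level in H1975, a log2 fold of -1.72 (-1.79 to -1.65), with -0.79 in A549 and -0.09 in HCC827. With library totals those values were -2.13, -1.79 and 0.03, so the sign in HCC827 depends on the scaling and A549 passes 2-fold. The across-line log2 fold was -0.87 (SE 0.50, edgeR adjusted p = 0.416).

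MLX (ENSG00000108788, chromosome 17, 42567068 to 42573239, plus strand), the hub of the glucose-sensing arm, had 28.4, 56.2 and 81.1 CPM in A549, HCC827 and H1975 with AL-X, against 39.9, 45.7 and 71.2 CPM with DMSO. MLXIP (ENSG00000175727, chromosome 12, 122078722 to 122147347, plus strand), which encodes the MondoA protein, had 86.6, 135 and 160 CPM with AL-X, against 126, 124 and 178 CPM with DMSO. Neither gene differed by 2-fold in any line. The log2 folds in A549, HCC827 and H1975 were -0.49, 0.30 and 0.19 for MLX, the last of which was -0.22 with library totals. For MLXIP they were -0.54, 0.12 and -0.15. Across lines the edgeR log2 folds were 0.00 (SE 0.48, adjusted p = 1.000) for MLX and -0.19 (SE 0.48, adjusted p = 0.862) for MLXIP. With library totals both were lower by over 2-fold in A549, at -1.49 and -1.55, where the median shift of the genes considered was -1. MLX shares 770 exonic bases with PSMC3IP on the other strand, whose log2 folds were 1.85, 0.58 and -0.24.

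**Figure D2:**
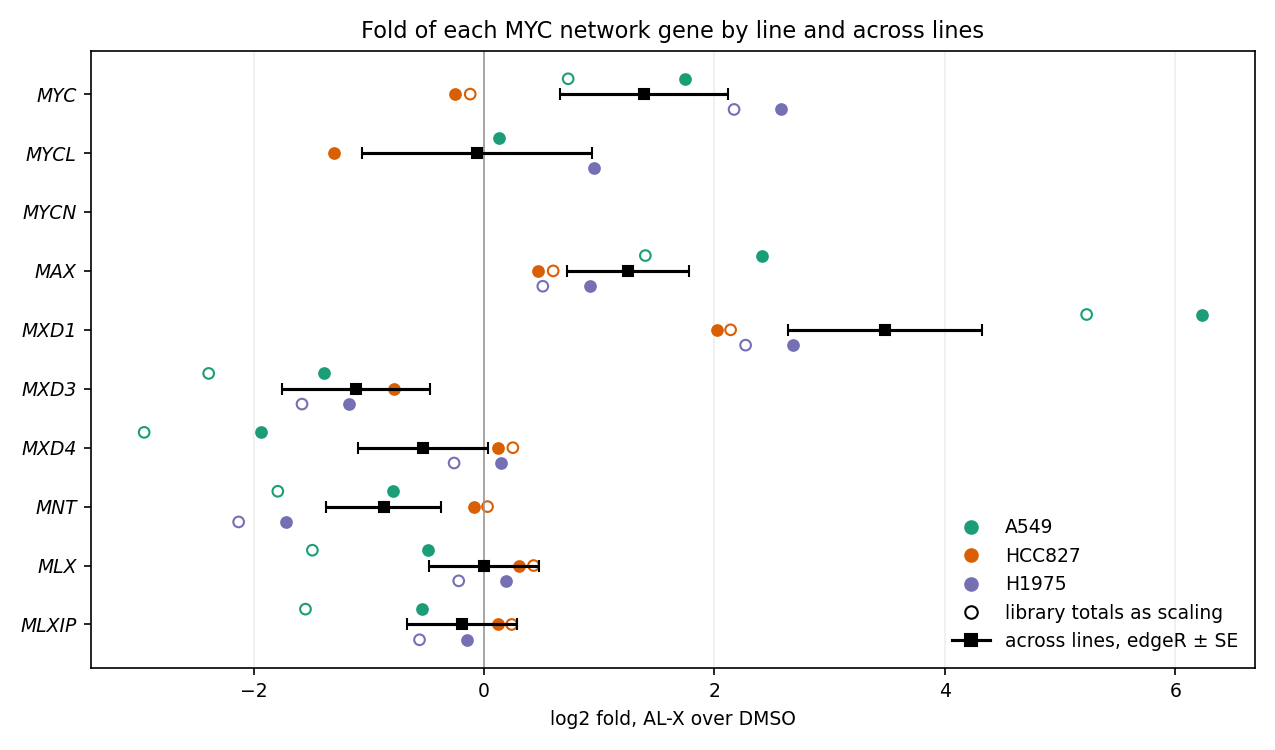
Log2 fold of AL-X over DMSO for each MYC network gene, as filled circles per line with TMM scaling, open circles per line with library totals, and a black square with its standard error for the edgeR value across lines. MXD1 lies at 2 or more in every line, and MYC at -0.25 in HCC827 against 1.74 in A549 and 2.58 in H1975. MYCN, at 0 counts in 4 libraries, has no point.

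Counted within lines, the members spread to both sides. In A549, 3 of 8 members considered were at least 2-fold higher (MYC, MAX and MXD1), beside 30% of all genes considered, and 2 were at least 2-fold lower (MXD3 and MXD4), beside 31.4%. HCC827 had 1 of 7 members higher (MXD1), beside 10.7% of genes, and 0 lower, beside 17.2%. H1975 had 2 of 8 higher (MYC and MXD1), beside 15.4% of genes, and 2 lower (MXD3 and MNT), beside 17.7%. These shares are near or not far above the background of each line, and the counts say nothing particular about the network. The median log2 fold of the members considered was -0.52 (A549), 0.12 (HCC827) and 0.17 (H1975), and that of all genes was -0.00212, -0.042 and 0.0665. At least 2-fold higher in all 3 lines were 2.66% of 10210 genes, MXD1 among them, and 3.46% were at least 2-fold lower in all 3 lines, with 0 members among them.

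With library totals as the only scaling, 1471 genes were higher and 6075 lower in A549, where TMM scaling gave 3545 and 3712. In HCC827 the numbers were 1692 higher and 1845 lower with library totals, against 1270 and 2041 with TMM. In H1975 they were 829 and 3378, against 1814 and 2091. Of the members, 2 in place of 3 were then at least 2-fold higher in A549 and 5 in place of 2 were lower. In A549 and H1975 the fold also went with gene length. Among protein-coding genes in A549 the median log2 fold was 0.85 below the lower quartile of merged exon length, 3472.5 bases, and -0.97 above the upper quartile, 7784.5 bases. The same medians were 0.58 and -0.41 in H1975 and -0.03 and -0.13 in HCC827. MYC with 3001 bases lies below the lower quartile, MNT with 8728 and MLXIP with 13905 lie above the upper one, and MXD1 lies between them. The part of scaling and of length in the members' folds was not tested.

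No member passed the test that sets 1 line against the mean of the 2 others (edgeR quasi-likelihood interaction term, Benjamini-Hochberg adjustment). That test called 0.28% of genes for A549, 0.261% for HCC827 and 0% for H1975. At an unadjusted p under 0.05, as 2245, 1667 and 236 genes were, stood MXD1 and MXD4 for A549, MXD1 and MYC for HCC827, and 0 members for H1975. With 1 residual degree of freedom it takes the spread of the single line to equal that of the pair. The HCC827 value of MXD1 was -2.44 (SE 1.2, edgeR adjusted p = 0.591) and that of H1975 was -1.45 (SE 1.8, edgeR adjusted p = 1).

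Levels of different genes were compared as CPM per kilobase of merged exons. MYC was the most abundant member in every library, with means of 220 ± 209 with AL-X and 73.5 ± 40.4 with DMSO (SD, n = 3 each, as for all means that follow). It stood above at least 96.1% of the genes detected. MXD1 came second with AL-X, at 47.4 ± 27.2, and seventh of 10 with DMSO, at 4.59 ± 3.85. It was the member whose place in the order moved most.

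With AL-X the order went on with MAX at 29.7 ± 12.8, MLX at 13 ± 6.2, MLXIP at 9.15 ± 2.69, MXD4 at 5.77 ± 3.71 and MNT at 4.57 ± 2.78. Each of these neighbours, MYC and MXD1 included, differed by less than their spread between lines, in that the ranges of mean ± SD met. That spread ignores that the genes share libraries. Within each AL-X library MYC lay above MXD1, and MAX, MLX, MLXIP and MXD4 kept that order. The order of MXD1 and MAX, and of MXD4 and MNT, changed between lines. MXD3 at 1.05 ± 0.579 lay below MNT beyond that spread, and MYCL at 0.205 ± 0.0137 below MXD3. With DMSO, MYC stood apart above MLX at 12.3 ± 3.91, MAX at 12 ± 3.3 and MLXIP at 10.3 ± 2.19, which did not differ beyond their spread. Within each DMSO library MLX lay above MLXIP. Next came MNT at 7.37 ± 0.733, MXD4 at 6.9 ± 1.12, MXD1 and MXD3 at 2.47 ± 1.76, each within the spread of its neighbour, and MYCL at 0.258 ± 0.19 lay below them. MYCN closed both orders. The order over all 6 libraries was the same with the length of the longest annotated transcript in place of merged exons.

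The balance between the activator and its antagonists was followed within each library, where scaling has no part. There were 1.42 MXD1 counts per MYC count in A549 with AL-X and 0.0625 with DMSO. In HCC827 the ratio was 0.386 with AL-X and 0.0802 with DMSO, and in H1975 it was 0.252 with AL-X and 0.236 with DMSO. The ratio was thus higher with AL-X by 4.5 and 2.27 log2 units in A549 and HCC827, and by 0.09 in H1975, where MYC and MXD1 were higher to nearly the same degree. Per kilobase, MYC was 1.43, 3.55 and 7.37 times the sum of MXD1, MXD3 and MXD4 in A549, HCC827 and H1975 with AL-X, and 2.68, 8.41 and 4.59 times with DMSO. That balance moved towards this MXD sum in A549 and HCC827 and towards MYC in H1975, as a description of RNA and not of protein. With AL-X, MXD1 alone gave 70 of the 73.4 CPM per kilobase of the sum in A549 and 17.2 of 26.6 in HCC827. In A549 MXD3, MXD4 and MNT were lower with AL-X than with DMSO. The sum leaves out MNT, and also MXI1, a repressor described below.

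The ratio of MAX to MNT moved one way in all 3 lines. There were 5.8, 1.36 and 5.6 MAX counts per MNT count in A549, HCC827 and H1975 with AL-X, against 0.635, 0.922 and 0.897 with DMSO. The 3 ratios with AL-X all lay above the 3 with DMSO, and HCC827 again had the smallest difference, at 0.56 log2 units against 3.19 in A549 and 2.64 in H1975. MLXIP and MLX kept close to each other, with 3.05, 2.4 and 1.97 MLXIP counts per MLX count with AL-X and 3.16, 2.72 and 2.5 with DMSO. For MAX per MYC the lines parted, with 0.626, 0.321 and 0.0776 in A549, HCC827 and H1975 with AL-X, against 0.393, 0.195 and 0.246 with DMSO.

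**Figure D3:**
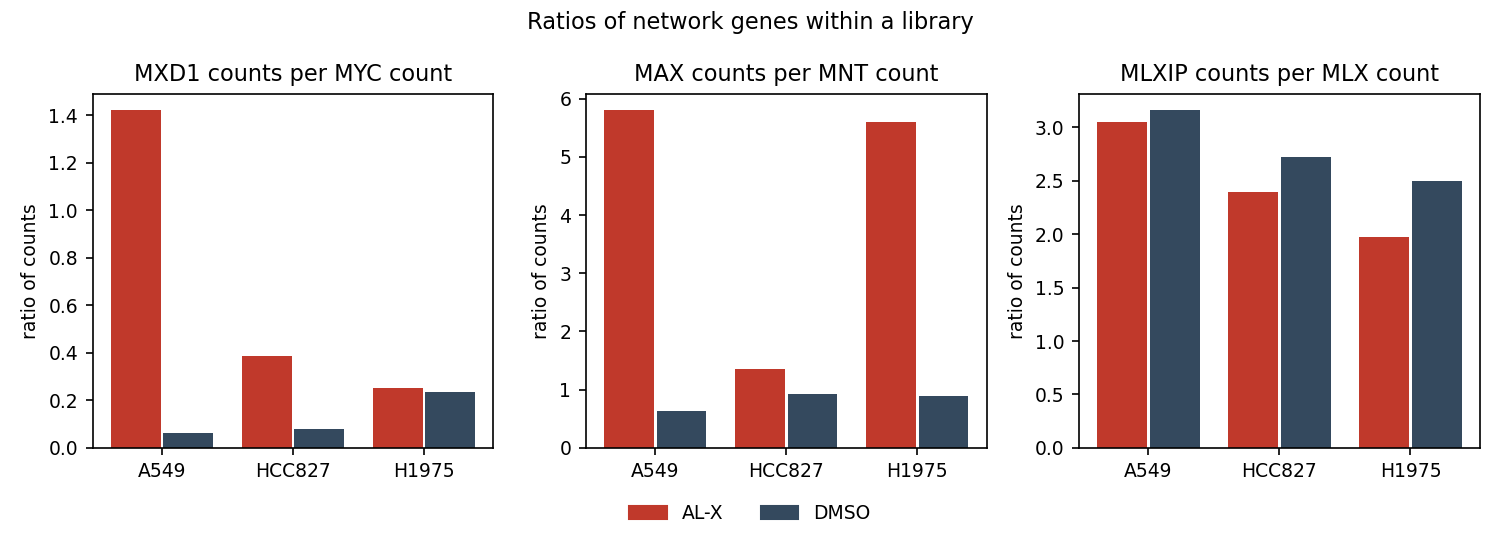
Ratio of counts of 2 network genes within a library, with AL-X (red, left bar) and DMSO (blue, right bar) in each line. MXD1 per MYC was higher with AL-X in A549 and HCC827 and nearly level in H1975, MAX per MNT was higher with AL-X in all 3 lines, and MLXIP per MLX was at most 3.16 and differed little.

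Of the other genes of the network, MXI1 (the MXD2 repressor) resembled MAX only in A549. It had 83.7, 34.4 and 27.4 CPM in A549, HCC827 and H1975 with AL-X, against 25.9, 32 and 38.1 CPM with DMSO (across lines 0.43, SE 0.56, edgeR adjusted p = 0.713). MLXIPL, the ChREBP gene, had 1.17, 0.553 and 16 CPM with AL-X, against 10.8, 3.6 and 27.5 CPM with DMSO, lower in each line (-2.24, SE 0.75, adjusted p = 0.207). MGA, a giant MAX partner of a repressive complex, had 35.1, 114 and 28.6 CPM with AL-X, against 82.6, 106 and 122 CPM with DMSO (-1.08, SE 0.54, adjusted p = 0.353). MGA and MNT, both lowest in H1975 with AL-X and level in HCC827, had the same order of lines. Of MXI1, MLXIPL and MGA, edgeR and limma-voom called 0 and DESeq2 called 1, with 1 lower at an unadjusted p under 0.05 in edgeR.

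E-box letters were sought in the RefSeq promoter windows of the members, because factors of this network bind them. Of the 10 members 9 had a window, and MAX had a pair of them. CACGTG was found in 3 of 10 member windows and in 7.26% of 35116 windows of 300 bases. The AP-1 letters TGANTCA stood in 7.71% of windows, MXD3 among them, and the CRE letters TGACGTCA in 1.85%, MLXIP among them. The 3 stretches with an E-box belong to MXD4 (chr4:2262300-2262359, minus strand), MNT (chr17:2401221-2401280, minus strand) and MLX (chr17:42567023-42567082, plus strand) on GRCh38.p14. The E-box, in capitals, starts 238, 193 and 50 bases before the start of MXD4, MNT and MLX. None of these 3 genes was higher by 2-fold with AL-X in any line, and a match is a description of letters, not a site of binding.
MXD4: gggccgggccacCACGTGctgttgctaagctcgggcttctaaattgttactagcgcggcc
MNT: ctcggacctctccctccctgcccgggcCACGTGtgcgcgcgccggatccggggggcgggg
MLX: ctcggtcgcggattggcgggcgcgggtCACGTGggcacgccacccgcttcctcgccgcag

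Genes held to be targets of the network were followed in lists, and not each of them is an established target. The lists too were chosen with earlier results of these data known, so shares of all genes beside them are description only. Over all 20344 genes tested, edgeR called 52, DESeq2 1986 and limma-voom 661. At an unadjusted p under 0.05, edgeR had 1114 genes higher and 2085 lower. Ribosome biogenesis genes, the best-known MYC-activated group, gave 0 of 20 called across lines by edgeR, with a median log2 fold of 0.85. Its unadjusted p was under 0.05 for 2 genes, both higher, the DESeq2 test called 1 and limma-voom 0, and edgeR without HCC827 called 1. Their medians by line were 1.88 in A549, -0.45 in HCC827 and 1.07 in H1975, and for MYC too HCC827 was the line below 0. With library totals they were 0.87, -0.32 and 0.67. Median log2 folds of the shortest and longest protein-coding genes, as split above by exon length, were 0.85 and -0.97 in A549. Those medians were 0.58 and -0.41 in H1975, and -0.03 and -0.13 in HCC827. The part of gene length in the medians of this and the other lists was not tested. At least 2-fold higher were 14 of 20 for A549, 0 for HCC827 and 11 for H1975, and 0, 2 and 0 were at least 2-fold lower. Of all genes 30% in A549 and 15.4% in H1975 were as much higher. With library totals 9 were higher and 1 lower in A549, and 5 were higher in H1975. NOP16, a nucleolar protein, had 662, 37.5 and 130 CPM in A549, HCC827 and H1975 with AL-X, against 36.2, 38.7 and 25.3 CPM with DMSO (2.2, SE 0.81, edgeR adjusted p = 0.237). NOP56, a core protein of box C/D snoRNPs, had 2690, 125 and 559 CPM with AL-X, against 201, 166 and 131 CPM with DMSO. NCL, nucleolin, had 9830, 915 and 2660 CPM with AL-X, against 1170, 1360 and 959 CPM with DMSO. These examples were level or lower in HCC827 and higher in A549 and H1975. At the other end RRS1 (-0.38) and MYBBP1A (-0.32) had the lowest across-line values.

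Metabolic and growth genes that MYC is known to activate were more mixed. Of 20 tested 0 were called by edgeR, DESeq2 or limma-voom, with 1 higher and 1 lower at an unadjusted p under 0.05 in edgeR, and the median was 0.53 across lines, with 0.74 for A549, -0.25 for HCC827 and 0.69 for H1975. With library totals the A549 median was -0.26, so its sign depends on the scaling. ODC1, the rate-limiting enzyme of polyamine synthesis, had 303, 76.1 and 118 CPM in A549, HCC827 and H1975 with AL-X, against 61.9, 86 and 60.8 CPM with DMSO. SRM, spermidine synthase, differed in the same manner with log2 folds of 2.23, -0.05 and 2.13. EIF4A1, a translation helicase, had 3.57, -0.98 and 1.68. CAD, the enzyme that opens pyrimidine synthesis, was lower in each line (-2.42, -0.89 and -0.64). HK2, a hexokinase, had an across-line value of -0.87, with log2 folds of 0.3 in HCC827 and -1.6 in H1975. In A549 HK2 had 0.46 CPM with AL-X and 1.14 CPM with DMSO, too low for its fold to be counted.

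Cell cycle genes gave 0 of 11 called by edgeR, 3 by DESeq2, 2 by limma-voom and 1 by edgeR without HCC827. In edgeR 1 gene was higher and 3 were lower at an unadjusted p under 0.05. The median was -0.24 across lines, with -0.01 for A549, -0.99 for HCC827 and 0.39 for H1975 beside -1.02, -0.87 and -0.01 with library totals. Of 10 considered in A549, 3 were at least 2-fold higher and 2 lower, beside 30% and 31.4% of all genes. HCC827 had 0 higher and 5 lower of 11, beside 10.7% and 17.2%. H1975 had 1 higher and 2 lower of 10, beside 15.4% and 17.7%. With library totals A549 had 2 higher and 5 lower, and H1975 had 1 and 3. CCNE1, cyclin E1, had 913, 17.6 and 122 CPM in A549, HCC827 and H1975 with AL-X, against 18.4, 11.3 and 16.2 CPM with DMSO (3.03, SE 0.92, edgeR adjusted p = 0.175). E2F2, a cell cycle transcription factor, had 0.416, 1.29 and 0.968 CPM with AL-X, against 17.5, 9.88 and 14.5 CPM with DMSO (-4.05, SE 0.83, edgeR adjusted p = 0.0791). CCNE1 was thus higher and E2F2 lower in each line, although both are listed as activated targets. CDCA7, a MYC-responsive cell cycle gene, was lower like E2F2 (-2.2), the phosphatase gene CDC25A was higher in A549 (3.20) and not in HCC827 (-0.71), and CDK4 had an across-line value of 0.03.

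Genes known to be repressed by MYC had the highest median, at 1.66 across lines, with 1.83, 1.81 and 2.19 in A549, HCC827 and H1975, or 0.66, 1.94 and 1.78 with library totals. By edgeR 1 of 13 was called, higher, beside 0.0983% of all genes, and 6 were higher and 0 lower at an unadjusted p under 0.05. The DESeq2 test called 7 and limma-voom 4, while edgeR called 2 without A549, 4 without HCC827 and 0 with library totals. The gene called by edgeR was DDIT3, which encodes CHOP, and its log2 fold was 5.18 (SE 0.78, edgeR adjusted p = 0.0237). The call was lost with library totals (4.8, adjusted p = 0.0938), with no filter and with no block, over a range of adjusted p between 1.1e-10 and 0.569. CDKN1A, the p21 cyclin-dependent kinase inhibitor, had 3320, 149 and 321 CPM with AL-X, against 50.9, 11.6 and 41.6 CPM with DMSO (4.17, SE 0.85, edgeR adjusted p = 0.0731). GADD45B, a stress-induced growth arrest gene, had 6680, 26.4 and 1790 CPM with AL-X, against 20.5, 8.63 and 30.4 CPM with DMSO. CDKN1B, the p27 inhibitor, went the other way with an across-line value of -0.51, and NDRG1 had 0.29. At least 2-fold higher were 8 of 12 considered in A549, 8 of 10 in HCC827 and 7 of 10 in H1975, with 1, 0 and 1 lower. Of all genes 30%, 10.7% and 15.4% were as much higher. With library totals 5 were higher and 3 lower in A549, 8 and 0 in HCC827, and 6 and 2 in H1975.

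**Figure D4:**
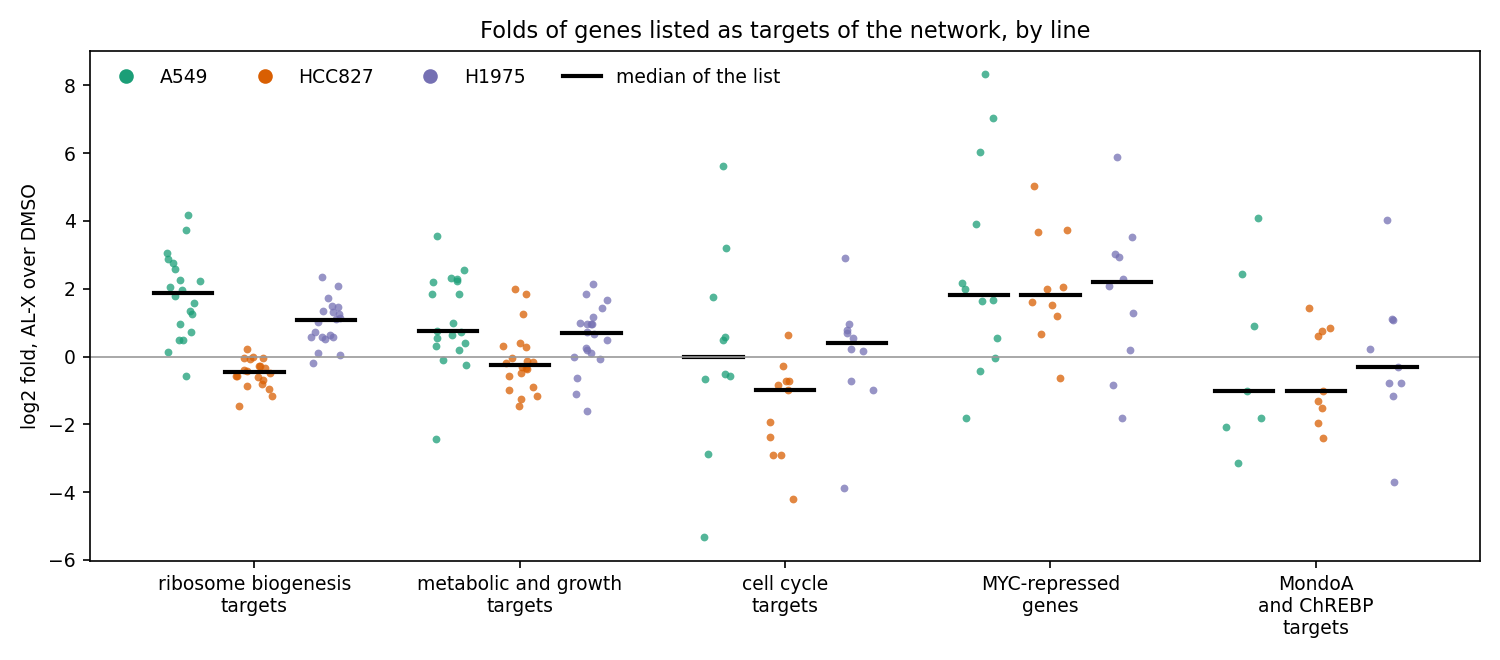
Log2 fold of AL-X over DMSO for genes of 5 lists of network targets that reached 5 CPM in 1 of the 2 libraries, each point a gene and each bar the median of its list, by line. The ribosome biogenesis median is 1.88 in A549, -0.45 in HCC827 and 1.07 in H1975, while the MYC-repressed median is above 1.8 in all 3 lines with the TMM scaling drawn here and 0.66 in A549 with library totals.

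Genes listed as targets of MLXIP and MLXIPL gave 0 of 9 called by edgeR, 4 by DESeq2 and 2 by limma-voom. With edgeR 1 was called without A549 and 1 without HCC827. Before adjustment edgeR gave 2 higher and 4 lower at p under 0.05. The median was -0.61, with -1.02 for A549, -1.01 for HCC827 and -0.30 for H1975, or -2.02, -0.88 and -0.71 with library totals. At least 2-fold lower were 4 of 7 considered in A549, 5 of 9 in HCC827 and 2 of 9 in H1975, while 2, 1 and 3 were at least 2-fold higher. Of all genes 31.4%, 17.2% and 17.7% were as much lower. With library totals H1975 had 1 higher and 4 lower. TXNIP, the classic MondoA target and an inhibitor of glucose uptake, had 0.312, 16.6 and 22.3 CPM in A549, HCC827 and H1975 with AL-X, against 0.443, 87.7 and 292 CPM with DMSO. It was close to absent in A549 with either treatment and lower with AL-X in the other lines (-2.30, SE 0.65, edgeR adjusted p = 0.154). ARRDC4, the target most often paired with TXNIP, had 0.713, 6.81 and 16.1 CPM with AL-X, against 0.279, 4.47 and 7.52 CPM with DMSO, higher in each line. In HCC827 and H1975 the 2 genes thus differed in opposite directions. The lipid enzyme gene SCD (-1.92) was lower in each line, KLF10 was higher (4.10, 0.84 and 4.04 by line), and G6PC3 had 1.13.

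Partners and regulators of MYC gave 0 calls by edgeR in 3 further lists. The DESeq2 test called 1 cofactor, 2 genes of protein turnover and 0 regulators, and limma-voom called 0. Before adjustment edgeR gave, at p under 0.05, 1 cofactor higher, 1 turnover gene higher and 2 lower, and 1 regulator lower. Of 18 cofactor genes the median was 0.22, and ZBTB17 (MIZ1), through which MYC represses genes, had 70, 40.4 and 65.9 CPM in A549, HCC827 and H1975 with AL-X, against 17.4, 15 and 19.8 CPM with DMSO. Its groups did not overlap and its log2 folds were 2.01, 1.43 and 1.74 (across lines 1.73, SE 0.48, edgeR adjusted p = 0.150). HCFC1 had 1.27 and EP400 -0.84. Of 18 genes of MYC protein turnover the median was 0.18. SKP2, a ubiquitin ligase subunit that acts on MYC, had 4.16, 19.3 and 10.8 CPM with AL-X, against 25.7, 42.8 and 27 CPM with DMSO, and the deubiquitinase USP36, which stabilises MYC, had 438, 120 and 135 CPM with AL-X, against 79.1, 65.6 and 64.4 CPM with DMSO.

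TRIM32, another ubiquitin ligase of that list, had 1.16, 16.6 and 1.91 CPM with AL-X, against 29.7, 21.4 and 21 CPM with DMSO (-2.93, SE 0.92, edgeR adjusted p = 0.183), and AXIN1 had 0.97. Of 11 tested regulators of MYC transcription the median was -0.03. CNBP had 1.40, E2F4 0.63, AXIN2 -0.82 and TCF7L2 -1.19. PVT1, the long non-coding RNA gene beside MYC, had 25.4, 55.8 and 106 CPM with AL-X, against 24.4, 29.8 and 80.6 CPM with DMSO, so that its log2 folds of 0.06, 0.91 and 0.39 ran in another order of lines than those of MYC.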

How the data were processed

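The deposited values are raw read counts, whole numbers with no scaling by the authors, in 1 table of 60671 Ensembl gene rows and 6 columns. RNA was isolated with Trizol and went into an Agilent mRNA library kit, per the labels' protocols. The submitters' processing notes name bcl2fastq 2.20 and GRCh38. Not given in the sources used here are the aligner, counter, annotation release, strand setting and any molecular barcodes. A symbol was matched to 60401 rows, and 58453 had a position and merged exon length in GENCODE 29.

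Libraries were paired by cell line, which the labels give, so line was a block. The test was edgeR 4.0.16 in R 4.3.3 (TMM, filterByExpr on treatment, robust quasi-likelihood, 2 residual degrees of freedom), with Benjamini-Hochberg adjustment over all genes. A standard error came from the fold and its F value. Within a line, log2 folds of CPM with a prior count of 2 were counted at 2-fold if the higher library reached 5 CPM, without a test. Alternatives were DESeq2 1.42.0, limma-voom 3.58.1, other scalings and filters, other shrinkage, a fit without the block, and leaving out each line. The scripts were tested on simulated counts. From each of 9 lists, holding 128 genes of which 127 were found, the text names up to 2 genes from either end by across-line fold with a mean of at least 5 CPM, every gene called, and MXI1, MLXIPL, MGA, TXNIP, ARRDC4, ODC1, NCL, CDK4, CDKN1A and PVT1. A gene that this rule names is not reported here. The members and lists were chosen with earlier results of these data known. The AP-1 and CRE letters were added after the data were seen.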

Additional observations from a re-analysis of the deposited data

Results flagged for a closer look

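The difference of GADD45B between lines passed its test. Its log2 fold was 1.61 in HCC827, beside 8.34 in A549 and 5.88 in H1975, and HCC827 differed from the mean of the other lines by -5.5 (SE 1.4, edgeR adjusted p = 0.0278 with 1 residual degree of freedom). With library totals it was -4.67 and did not pass (adjusted p = 0.278).

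NDRG1, a MYC-repressed gene, differed by 2-fold or more in opposite directions in 2 lines. It had 428 CPM with AL-X and 107 CPM with DMSO in HCC827, and 151 CPM with AL-X and 534 CPM with DMSO in H1975. The log2 folds of 2.00 and -1.82 lie 3.82 apart, and this difference did not pass for HCC827 (2.64, SE 1.2, edgeR adjusted p = 0.521) or for H1975 (-3.1, SE 1.9, adjusted p = 1).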

How the results depend on the processing

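The count of members called across lines was 0 in edgeR and stayed 0 with DESeq2 size factors, library totals, mitochondrial genes left out, either other filter, no robust shrinkage and no replicate block. It was 1 with the DESeq2 test and 1 with limma-voom, and between 0 and 1 when 1 line was left out, the call being MXD1 without A549. Genes called in all were 52 in edgeR, 0 with library totals, 12 with mitochondrial genes left out, 0 with no filter, 0 with no replicate block, 1986 with DESeq2 and 661 with limma-voom. They were 143 without A549, 184 without HCC827 and 106 without H1975. Signs of the across-line log2 fold held under all 12 alternatives for MYC, MAX, MXD1, MXD3 and MNT. MYC ran from 0.74 to 2.12, MAX from 0.74 to 1.62, MXD3 from -1.54 to -0.93 and MNT from -1.32 to -0.44. MLX, at 0.00, became -0.42 with library totals, 0 (just below it) with mitochondrial genes left out, -0.1 with no filter and -0.01 with at least 1 CPM in 3 libraries. With 1 line left out, MLX ran from -0.19 to 0.29, MLXIP from -0.39 to 0.03, MXD4 from -0.94 to 0.18 and MYCL from -0.59 to 0.51. The causes were not tested. Within lines, members at least 2-fold lower in A549 were 5 with library totals in place of 2, and in HCC827 1 with a minimum of 1 CPM in place of 0 (MYCL). Of 115 within-line folds recomputed, 23 moved by more than counting error, and these were all of the folds recomputed with library totals. The minimum of 1 CPM leaves a fold itself unchanged by design. No fold at 2-fold or more changed sign. Smaller folds that changed sign with library totals were MXD4 (-0.26) and MLX (-0.22) in H1975 and MNT (0.03) in HCC827. Depth limits MYCN and MYCL, and 3 lines limit every test.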
